A study of Mus musculus with 4 samples.

Results

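Small nucleolar RNAs (snoRNAs) and their relatives of the Cajal body (scaRNAs) were followed in mouse blood stem and progenitor cells at rest and after chemotherapy injury. Members were all genes with a probe set whose one platform symbol starts with Snora, Snord or Scarna. Of 22180 genes measured, 78 met this rule: 47 C/D box RNAs (symbols starting with Snord), 26 H/ACA box RNAs (Snora) and 5 Cajal body RNAs (Scarna). The cells were LSK cells, the fraction of bone marrow that lacks mature lineage markers and carries Sca-1 and c-Kit, sorted from male C57/B6 mice 4 months old. The 4 groups were AMKO and Ctrl mice killed on day 8 after an injection of 5-fluorouracil (5FU), an antimetabolite that kills dividing marrow cells, at 150 mg/kg, and AMKO and Ctrl mice at day 0, labelled Basal. The labels name the genotype AMKO without saying which gene it alters, so no altered gene could be checked, and they do not say whether an array held RNA of 1 mouse or of a pool. Each group had 1 array, so no value has a replicate error, and every difference below compares single arrays.

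Box C/D RNAs pair with ribosomal RNA and direct the methyltransferase fibrillarin to add a methyl group to the ribose of a chosen nucleotide, while box H/ACA RNAs direct the pseudouridine synthase dyskerin to a chosen uridine. A few are needed for cleavage of precursor ribosomal RNA rather than for its modification, and scaRNAs guide the same reactions on the small nuclear RNAs of the spliceosome. In vertebrates most of them are released from introns of host genes, many of which encode ribosomal proteins or belong to a class of transcripts that start in a run of pyrimidines and are tied to translation. 5FU is known to enter RNA as well as to block thymidylate synthesis, and in yeast and mammalian cells it interferes with pseudouridine synthases and with ribosomal RNA processing.

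The boxes that define the classes, and the pyrimidine starts of some hosts, can be read in RefSeq sequence of build GRCm38.p6. The first 2 sequences show the 3′ end of an H/ACA RNA, where the capitals mark ACA followed by the last 3 bases, and the third shows the 5′ end of a C/D RNA, with its C box motif UGAUGA in capitals. Snora19 is a member and is given as annotated, the 56 nt that RefSeq places at chr19:60774330-60774385 on the minus strand, inside Eif3a. Snora36b (the last 64 of 113 nt, chr1:185242975-185243038, plus strand) and Snord33 (the first 28 of 82 nt, chr7:45126918-45126945, minus strand, inside Rpl13a) are no members, because their probe sets are assigned to several genes.
Snora19: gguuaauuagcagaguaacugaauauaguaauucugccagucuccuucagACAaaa
Snora36b: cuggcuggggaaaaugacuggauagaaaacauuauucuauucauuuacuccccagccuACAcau
Snord33: agcuugUGAUGAgacaucucccacucau
All 3 were read from microRNA hairpins that overlap these RNAs, on the strand of the hairpin. Of 1005 hairpins in the same table, 1.59% hold ACA followed by the last 3 bases, and 0.5% hold UGAUGA within their last 28 bases.

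The starts of 4 noncoding hosts with a pyrimidine run are shown as examples. Members described below lie in each of them but Gas5. Each sequence runs 5′ to 3′ over 40 bases before and 20 bases from the annotated start. Capitals mark the run of C and T that touches the start. Runs were shorter in the noncoding hosts Snhg1 (4 letters), Snhg3 (3) and Snhg16 (1), which are not shown. Snhg12 (chr4:132308638-132308697) holds Snord99, Snora44, Snora61 and Snora16a, and 2410006H16Rik (chr11:62602837-62602896) holds Snord49a, Snord49b and Snord65. Gm36220 (chr11:106500875-106500934) holds Snord104, and Gas5 (chr1:161035126-161035185) holds Snord47. All 4 are on the plus strand.
Snhg12: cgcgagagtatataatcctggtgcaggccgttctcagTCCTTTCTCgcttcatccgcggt
2410006H16Rik: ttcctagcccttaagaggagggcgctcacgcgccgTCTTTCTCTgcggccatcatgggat
Gm36220: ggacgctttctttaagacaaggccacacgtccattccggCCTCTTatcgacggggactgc
Gas5: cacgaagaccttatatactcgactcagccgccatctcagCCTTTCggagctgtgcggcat
A run of at least 5 C or T letters touching the start was present in 15 of the 46 host genes that have a start in the table (32.6%), and in 8 of the 11 noncoding ones, against 18.6% of 27025 genes. Most of those 15 hosts were thus noncoding. Rpl39 (5 letters) was the one ribosomal protein host with such a run, and the others with a start had 0 to 2. The run was searched on the gene's own strand.

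The deposited values are on a log2 scale, and those of the members ran between 2.84 and 12.55. A floor was set at 5.475, the median of all values on the arrays. Of the 78 members, 54 were at or over it on every array, 12 were under it on every array, and the other 12 crossed it. The 12 under it throughout were Snord1b, Snord19, Snord43, Snord85, Snord91a, Snord110, Snord111, Snora2b, Snora15, Snora19, Snora20 and Snora35. RefSeq gives the members lengths of 48 to 248 nt. RNA was extracted on silica columns, which are known to recover short RNA incompletely, so a value may come from the mature RNA, from its host's intron or from both, and the probe sets do not tell these apart. Members named as copies of one RNA (Snord35a and Snord35b, Snord49a and Snord49b, Snord73a and Snord73b, Snora73a and Snora73b, Snord88a and Snord88c) could share signal; their sequences were not compared here.

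LSK identity was checked first. Of 10 markers, 8 were measured, and all 8 were over the floor on every array, with array medians of 9.44 to 9.80. Of these 8, 6 were lower after 5FU in each genotype. None was past 2-fold in AMKO, while in Ctrl Flt3 (1.57) and Cd34 (1.03) were at least 2-fold higher and Procr (-1.64) lower. Other cells' genes differed between arrays. All 12 mature neutrophil markers were at least 2-fold higher after 5FU in Ctrl (median difference 5.445), and 2 of 12 were in AMKO (0.055). Their summed level was 9.09 in AMKO and 14.55 in Ctrl after 5FU, against 8.81 in AMKO and 8.86 in Ctrl at basal, in log2 units. Granulocyte-monocyte, B lineage and erythroid markers were likewise highest on the Ctrl 5FU array, with medians of 9.16, 8.01 and 7.79 there and at most 5.77 on any other. Skeletal muscle markers had a median of 8.585 on the Ctrl Basal array and of 5.375 to 6.0 elsewhere, and 11 of 12 were at least 2-fold lower in AMKO at basal. Of T and NK markers, 1 of 7 was at least 2-fold higher after 5FU in AMKO and 2 of 7 in Ctrl. The part of these other cells in any difference below was not tested, except where a value is given. In the comparison of 5FU with basal in AMKO, the median difference was 0.055 for the neutrophil list and -0.14 for the muscle list.

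After 5FU the snoRNAs and scaRNAs were more often lower than higher, as were microRNA genes. Most of the members at least 2-fold lower were C/D RNAs. In AMKO, 15 of the 78 were at least 2-fold lower after 5FU and 2 at least 2-fold higher, where 2.39% of all genes were that much lower and 3.02% that much higher. In Ctrl the counts were 8 lower and 2 higher, where 2.99% of all genes were lower and 3.32% higher. A difference is 5FU minus basal in log2 units throughout, and at least 2-fold means a difference of 1 or more. The members' median difference was -0.335 in AMKO and -0.13 in Ctrl, and that of all genes was -0.02 in AMKO and 0.0 in Ctrl. The members were also more spread, with an interquartile range of 0.95 in AMKO and 0.68 in Ctrl. That of all genes was 0.49 in AMKO and 0.46 in Ctrl. Among those over the floor on some array the gap was smaller in Ctrl. There the range was 0.97 in AMKO and 0.79 in Ctrl for members, and 0.64 in AMKO and 0.60 in Ctrl for all genes. With each array centred on its own median, 4 members in AMKO were that much higher and 14 lower, so the higher share of these calls was 22.2% in place of 11.8%. In bulk RNA, fewer cells of a type and less RNA per cell cannot be told apart.

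By class, 13 of 47 C/D RNAs (27.7%) were at least 2-fold lower after 5FU in AMKO and 2 higher, against 1 of 26 H/ACA RNAs lower and none higher. In Ctrl, 6 C/D RNAs were lower and 1 higher, against 1 H/ACA RNA in each direction. The C/D median was -0.38 in AMKO and -0.15 in Ctrl, and the H/ACA median was -0.19 in AMKO and -0.06 in Ctrl. The share of RNAs below 0 was alike in both classes, at 68.1% of C/D and 65.4% of H/ACA RNAs in AMKO and 59.6% and 61.5% in Ctrl. The gap between the class medians was smaller among members over either floor. With the floor at the median, the medians in AMKO were -0.45 for C/D and -0.30 for H/ACA, and in Ctrl -0.205 and -0.19. With it at the 75th percentile, they were -0.42 for C/D and -0.38 for H/ACA in AMKO, and -0.28 and -0.21 in Ctrl. After quantile normalization the gap was wider, with -0.52 for C/D and -0.17 for H/ACA in AMKO, and -0.21 and -0.09 in Ctrl. The C/D RNAs were also more spread, with an interquartile range of 1.17 in AMKO and 0.84 in Ctrl, where that of the H/ACA RNAs was 0.58 in AMKO and 0.60 in Ctrl. The 5 Cajal body RNAs had medians of -0.42 in AMKO and -0.39 in Ctrl. The 483 microRNA genes, another class of short RNA on the arrays, had medians of -0.16 in AMKO and -0.09 in Ctrl, with 30 genes at least 2-fold lower in each genotype, 10 higher in AMKO and 8 higher in Ctrl. Their share below 0 was 68.3% in AMKO and 61.1% in Ctrl, against 66.7% and 60.3% of all members. The difference between the classes was not tested, since members of 1 array are no replicates.

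**Figure D1:**
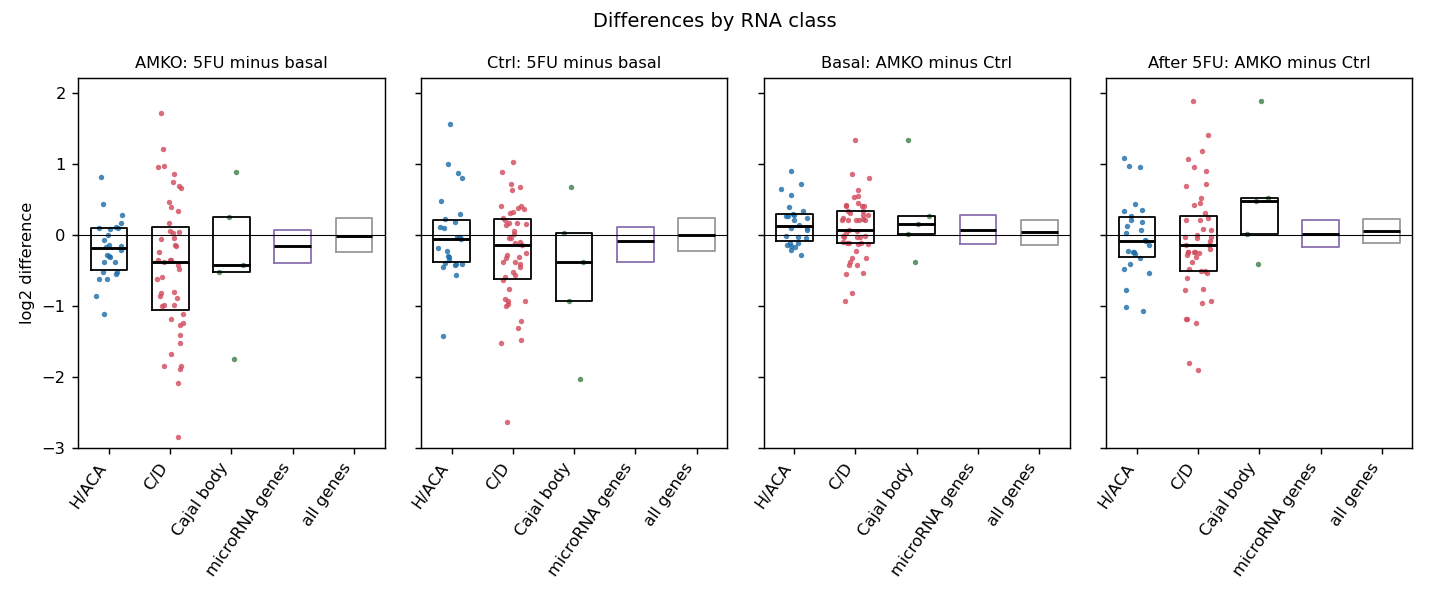
Log2 differences of the H/ACA, C/D and Cajal body RNAs, the microRNA genes and all genes in each comparison of single arrays. Boxes give the quartiles with the median, and points are single members (none are drawn for microRNA genes and all genes). The C/D box reaches lowest for 5FU in AMKO, with quartiles of -1.06 and 0.11, while the boxes of all genes lie around 0.

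The direction held in both genotypes for 53 members: 37 of 78 were lower by any amount in both and 16 higher, where 32.9% of all genes were lower and 30.8% higher in both. Those at least 2-fold lower in both were 4 (1.29% of all genes), and 1 was at least 2-fold higher in both (1.24%). Both 5FU arrays lay below both basal arrays for 30 members and above them for 14, where 25.5% of all genes lay below and 24.9% above. The members below were 19 of 47 C/D RNAs, 8 of 26 H/ACA RNAs and 3 of 5 Cajal body RNAs. Of the 483 microRNA genes, 43.9% were lower by any amount in both genotypes and 14.1% higher. Both 5FU arrays lay below both basal arrays for 33.7% of the microRNA genes and above them for 10.1%.

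The C/D RNAs that were lowest after 5FU in both genotypes were Snord89, Snord15a, Snord104 and Snord70. Snord89 read 8.69 in AMKO and 8.48 in Ctrl after 5FU, against 11.54 in AMKO and 11.12 in Ctrl at basal. That is 7.21-fold lower in AMKO and 6.23-fold lower in Ctrl, the widest gap of any member. No gene in the RefSeq table contains Snord89. Its neighbours Cnot11, a subunit of the deadenylase complex, and Rnf149, a ubiquitin ligase, had small 5FU differences: Cnot11 differed by 0.09 in AMKO and -0.06 in Ctrl, and Rnf149 by 0.14 in AMKO and 0.24 in Ctrl.

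Snord15a, which guides a methylation of 28S ribosomal RNA and lies in an intron of the ribosomal protein gene Rps3, read 5.17 in AMKO and 5.10 in Ctrl after 5FU, against 7.26 in AMKO and 6.63 in Ctrl at basal. Its 5FU values were under the floor and its basal values over it. Rps3 itself had 11.78 in AMKO and 11.83 in Ctrl after 5FU, against 11.09 in AMKO and 11.51 in Ctrl at basal, so host and member lay on opposite sides of 0 in both genotypes. Snord104, from the noncoding host Gm36220 shown above, read 9.27 on both 5FU arrays, against 10.95 in AMKO and 10.75 in Ctrl at basal. Snord70, from Nop58, read 5.02 in AMKO and 5.51 in Ctrl after 5FU, against 6.29 in AMKO and 6.72 in Ctrl at basal. Nop58 encodes a core protein of the C/D particle itself and differed by 0.53 in AMKO and 0.19 in Ctrl. Every one of these 4 RNAs was lower on both 5FU arrays than on either basal array. They were chosen as the lowest in both genotypes, so this adds no separate support.

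Snord99 came next, with 7.47 in AMKO and 8.41 in Ctrl after 5FU, against 9.32 in AMKO and 9.34 in Ctrl at basal. Snord111 had differences of -1.25 in AMKO and -0.91 in Ctrl, but it was under the floor throughout, at 3.76 in AMKO and 3.79 in Ctrl after 5FU, against 5.01 in AMKO and 4.70 in Ctrl at basal. Another 7 C/D RNAs were at least 2-fold lower in AMKO, namely Snord35b (-1.89), Snord87 (-1.85), Snord72 (-1.52), Snord71 (-1.41), Snord118 (-1.19), Snord90 (-1.12) and Snord66 (-1.0). In Ctrl these RNAs ran between -0.57 and 0.67, and the difference between the genotypes was not tested. Snord118, also called U8, is needed in vertebrates for maturation of the large subunit's ribosomal RNAs and is not known to guide a methylation. It read 4.52 in AMKO and 5.06 in Ctrl after 5FU, against 5.71 in AMKO and 4.91 in Ctrl at basal, so it was over the floor on 1 array. Snord73b differed by -0.38 in AMKO and -1.32 in Ctrl, and Snord123 by -0.87 in AMKO and -1.01 in Ctrl.

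Among C/D RNAs that were higher after 5FU, Snord88a was the one at least 2-fold higher in both genotypes. It read 6.99 in AMKO and 7.37 in Ctrl after 5FU, against 5.79 in AMKO and 6.34 in Ctrl at basal. Its neighbour in the same host gene, Snord88c, differed by -0.05 in AMKO and 0.41 in Ctrl, while the host, 2410002F23Rik, differed by -0.88 in AMKO and -0.53 in Ctrl. Snord82 (0.86 in AMKO, 0.41 in Ctrl), Snord49a (0.39 in AMKO, 0.71 in Ctrl), Snord73a (0.46 in AMKO, 0.36 in Ctrl) and Snord19 (0.95 in AMKO, 0.38 in Ctrl, under the floor throughout) were higher in both by less. Snord110 was 1.72 higher in AMKO and 0.05 in Ctrl, with every value under the floor. Of the other C/D RNAs known for processing rather than methylation, Snord22 (U22), needed for the small subunit's 18S RNA, differed by 0.16 in AMKO and 0.30 in Ctrl, and Snord13 (U13) by -0.81 in AMKO and -0.33 in Ctrl.

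**Figure D2:**
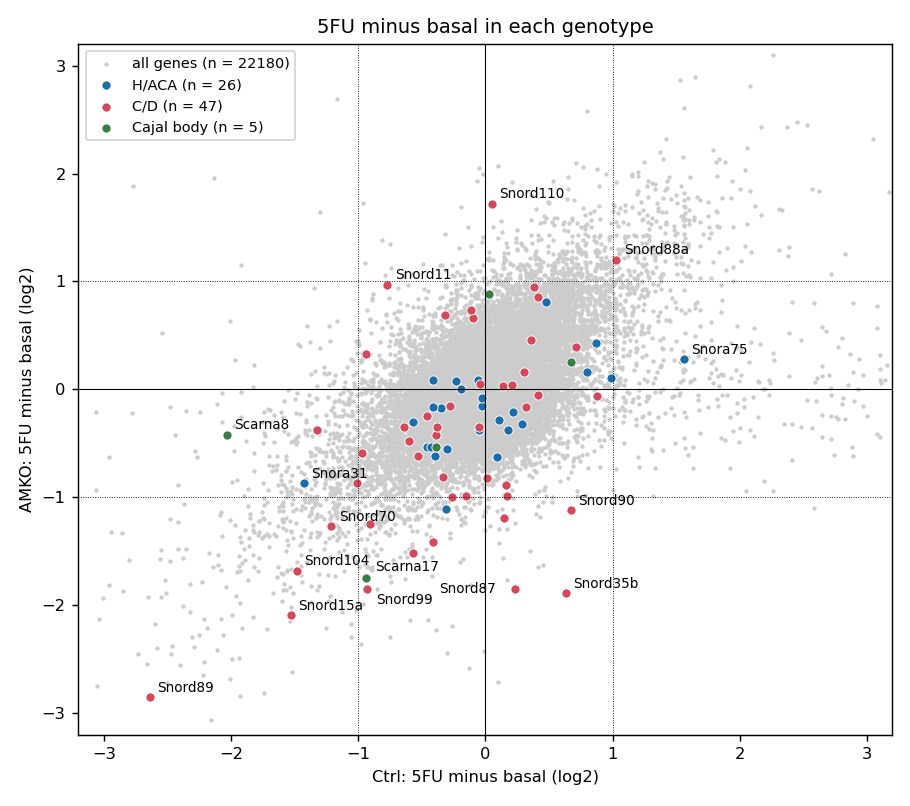
5FU minus basal in Ctrl on the horizontal axis and in AMKO on the vertical axis, both in log2 units, for each member by class and for all genes in grey; dotted lines mark 2-fold. Snord89 is at the lower left, at -2.64 and -2.85, and Snord88a is the member past 2-fold at the upper right; Snord35b, Snord87 and Snord90 lie below 0 in AMKO and above 0 in Ctrl.

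Fewer H/ACA RNAs were past 2-fold. Snora31, from an intron of Tpt1, was lower in both genotypes, with 9.51 in AMKO and 8.56 in Ctrl after 5FU, against 10.38 in AMKO and 9.99 in Ctrl at basal. It was the one H/ACA RNA at least 2-fold lower in Ctrl, and Snora44 was the one in AMKO. Snora44 read 7.23 in AMKO and 8.31 in Ctrl after 5FU, against 8.34 in AMKO and 8.62 in Ctrl at basal. Snora68 read 8.67 in AMKO and 8.24 in Ctrl after 5FU, against 7.86 in AMKO and 7.76 in Ctrl at basal, and was higher in both. Snora73a and Snora73b (U17), which are needed for 18S processing and are not known to guide a modification, were higher as well. Snora73b read 8.49 in AMKO and 8.73 in Ctrl after 5FU, against 8.06 in AMKO and 7.86 in Ctrl at basal, and Snora73a differed by 0.11 in AMKO and 0.99 in Ctrl. Snora75, from the nucleolin gene Ncl, was the H/ACA RNA at least 2-fold higher in Ctrl, with 5.83 in AMKO and 6.85 in Ctrl after 5FU, against 5.55 in AMKO and 5.29 in Ctrl at basal. Snora33, with values of 11.84 to 12.55, differed by -0.55 in AMKO and -0.30 in Ctrl, and Snora23, with values of 10.67 to 11.30, by -0.63 in AMKO and 0.09 in Ctrl.

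The 5 Cajal body RNAs split. Scarna17 read 6.95 in AMKO and 6.43 in Ctrl after 5FU, against 8.70 in AMKO and 7.37 in Ctrl at basal, and its second probe set ran the same way, by -1.15 in AMKO and -0.74 in Ctrl. Scarna8 read 6.02 in AMKO and 4.14 in Ctrl after 5FU, against 6.44 in AMKO and 6.17 in Ctrl at basal, so the Ctrl 5FU array stood apart from the other 3. Scarna2, which no gene in the RefSeq table contains, differed by -0.53 in AMKO and -0.39 in Ctrl. Scarna10 was 0.25 higher in AMKO and 0.67 higher in Ctrl, and Scarna6 was 0.88 higher in AMKO and 0.03 higher in Ctrl. No Cajal body RNA was on opposite sides of 0 in the 2 genotypes.

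**Figure D3:**
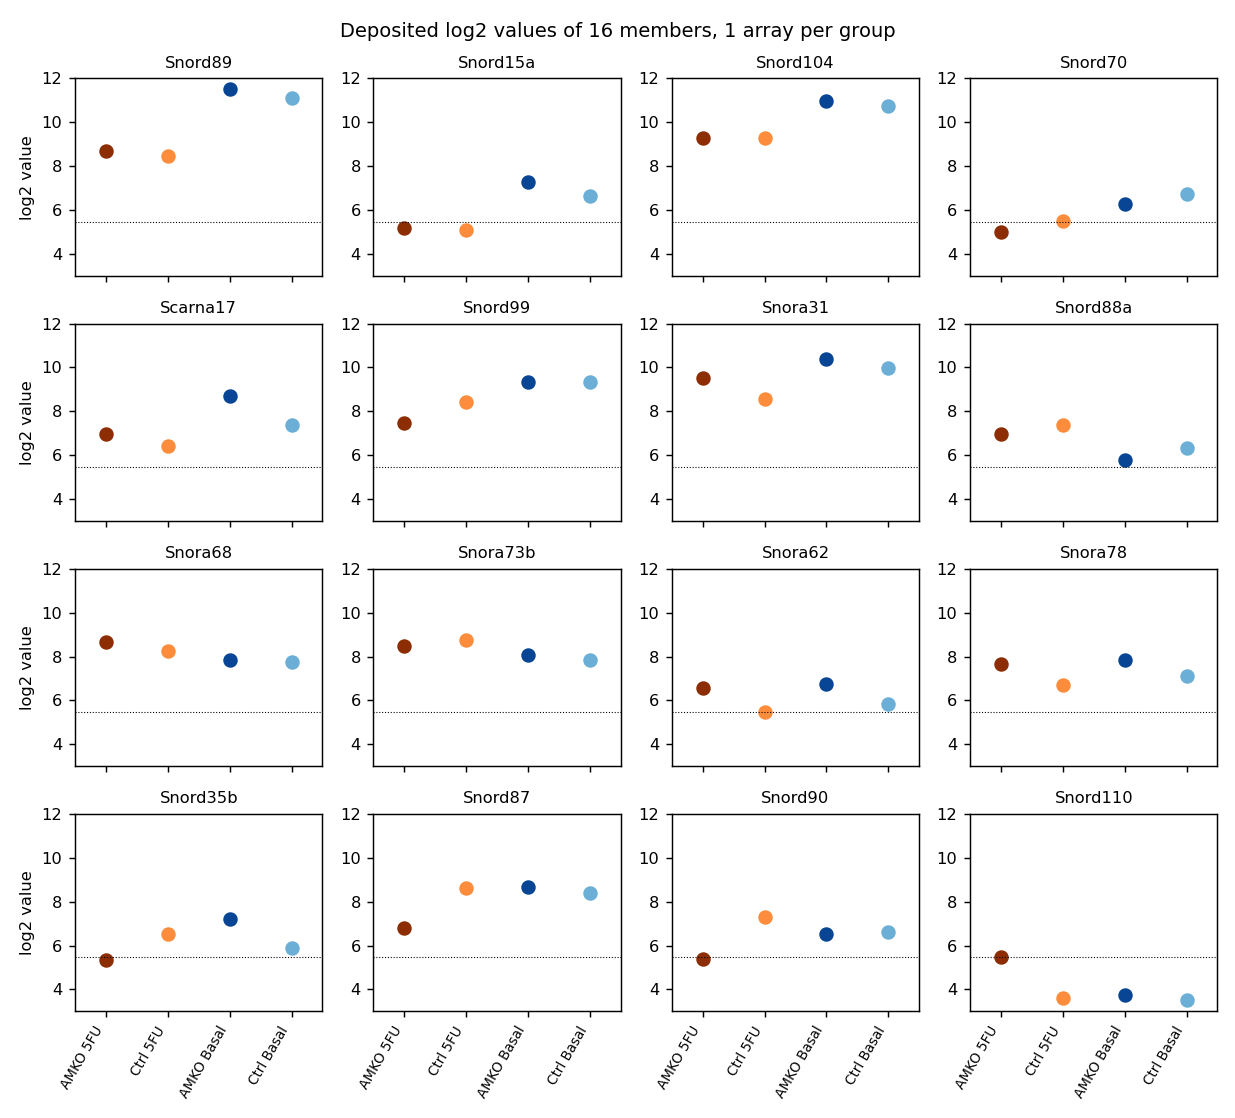
Deposited log2 values of 16 named members on each of the 4 arrays, in the order AMKO 5FU, Ctrl 5FU, AMKO Basal and Ctrl Basal, with the floor of 5.475 drawn. Snord89 and Snord104 lie over the floor on every array and lower on both 5FU arrays, while Snord88a lies higher on both.

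The additive limma model, with a term for genotype and one for 5FU over all 4 arrays, is the one test the design allows. It leaves 1 residual degree of freedom and takes as error the difference between the genotypes' responses, so its p-values carry no replicate error. Of the 14061 genes over the floor on some array, 0 passed a Benjamini-Hochberg adjusted p of 0.05 for 5FU, and 0 of the 66 members among them. Without adjustment, 26 of those members (39.4%; 20 lower and 6 higher) had limma p under 0.05, against 27.8% of the genes. The smallest adjusted p in this fit was 0.0697, shared by Snord89 (-2.75, standard error 0.121) and Snord104 (-1.58, standard error 0.118). Snord15a (-1.81), Snord70 (-1.24) and Snord88a (1.12) followed at a limma adjusted p of 0.0732, and Snora31 (-1.15) at 0.0782. The call depended on the processing, for members and for all genes. After quantile normalization 8 of 67 members passed (11.9%, against 6.93% of genes), and after median centring 2 of 67 (2.99%, against 1.15%). With the floor at the 75th percentile 7 of 45 passed (15.6%), which is the share of all genes (15.7%), and with robust variance estimation 9 of 66 (13.6%, against 9.35%). Snord89 and Snord104 were among those passing in each of these 4 settings, and Snora31, Snord61 and Snord99 in 3. With the Ctrl Basal array left out, a model of treatment alone, with both 5FU arrays against 1 basal array, gave 13 members with unadjusted limma p under 0.05, 19.7% against 21.5% of genes, so the members' share was not above that of all genes there. That model without the Ctrl 5FU array, with 1 5FU array against both basal arrays, gave 28 members, 42.4% against 26.4% of genes. These fits drop the genotype term, so their counts are not like for like with the 26 above. An exact permutation of 2 arrays against 2 cannot go below p = 0.333.

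Hosts and members shared a sign no more often than they differed in it. A containing gene was found for 74 of the 78 members, in 60 different hosts. Of these members, 53 lay in protein-coding genes and 21 in noncoding ones, and 18 lay in ribosomal protein genes. For 60 members the host was measured as well. After 5FU in AMKO the hosts had a median difference of 0.275 and the members in them -0.19, and 45 of 60 members lay below their host. In Ctrl the medians were 0.11 for hosts and -0.105 for members, with 38 of 60 below. Member and host had the same sign in 30 of 60 in each genotype. Across these 60 pairs, which share arrays and some of which share hosts, Pearson's r was -0.021 in AMKO and -0.001 in Ctrl, given as a description.

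In AMKO the gap was widest in ribosomal protein hosts. After 5FU in AMKO these 13 members had a median difference of -0.38 and their 11 hosts 0.69, and 12 of 13 members lay below their host. In Ctrl the medians were -0.32 for members and 0.08 for hosts, with 9 of 13 below. Snord72 differed by -1.52 in AMKO and -0.57 in Ctrl, and its host Rpl37 by 1.21 in AMKO and 0.39 in Ctrl. Rpl37 was low, with 6.59 in AMKO and 6.06 in Ctrl after 5FU, against 5.38 in AMKO and 5.67 in Ctrl at basal. It was thus under the floor on the AMKO Basal array. For the 15 members in noncoding hosts, the median was -0.30 in AMKO and 0.16 in Ctrl, and that of the hosts 0.05 in AMKO and -0.09 in Ctrl.

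Members of 1 host covered a range of differences. In Snhg12, which read 8.91 on both 5FU arrays, against 9.29 in AMKO and 9.25 in Ctrl at basal, the 5FU differences in AMKO were -1.85 for Snord99, -1.11 for Snora44, -0.62 for Snora61 and 0.16 for Snora16a. In Ctrl they were -0.93, -0.31, -0.40 and 0.80 in the same order. In 2410006H16Rik, Snord49a, Snord49b and Snord65 had 0.39, -0.89 and -0.42 in AMKO and 0.71, 0.16 and -0.39 in Ctrl. In Nop58, Snord11 differed by 0.97 in AMKO and -0.77 in Ctrl, while Snord70 was lower in both. A host close to its member was Snhg18, with Snord123 inside it, at -0.76 in AMKO and -1.0 in Ctrl, beside the values of Snord123 given above. Both were near the floor, under it after 5FU and over it at basal. Snhg18 ran from 4.85 to 5.85 and Snord123 from 4.56 to 5.64.

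**Figure D4:**
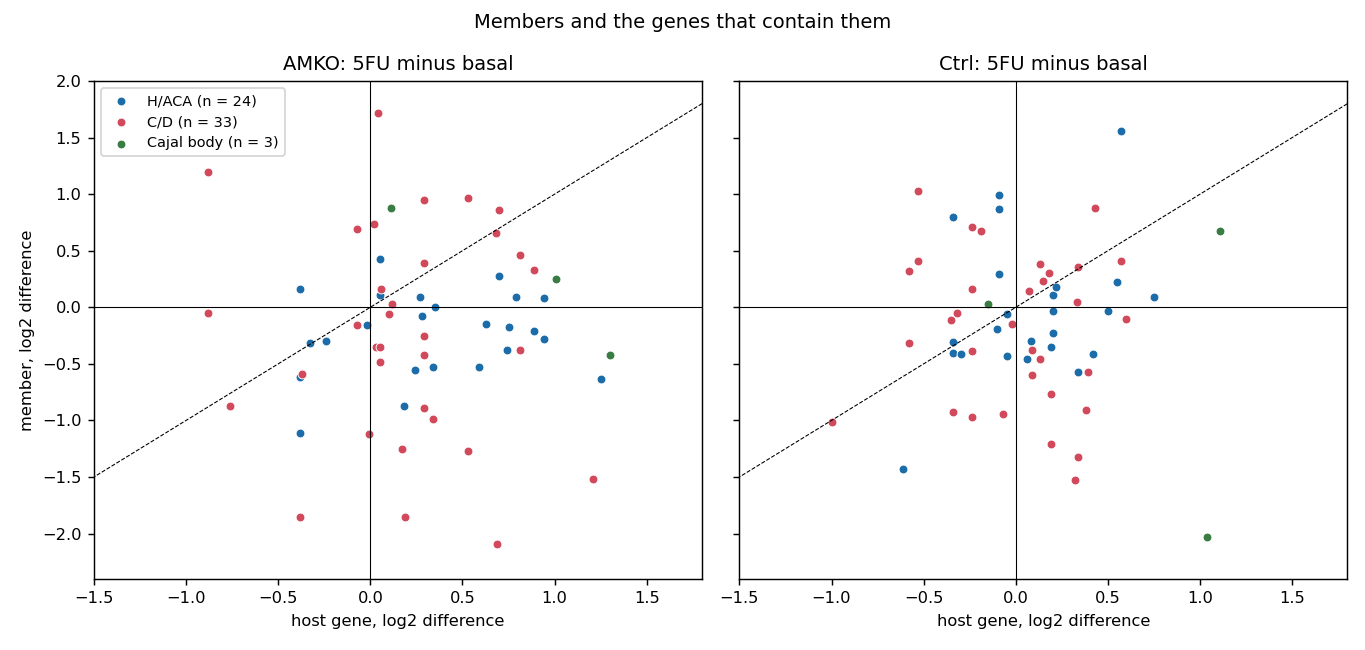
5FU minus basal of each host gene on the horizontal axis against that of the member inside it on the vertical axis, in log2 units, for the 60 members with a measured host, in AMKO and in Ctrl; the diagonal marks equal differences. Most points lie below the diagonal, 45 of 60 in AMKO and 38 of 60 in Ctrl.

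Genes of the proteins that carry snoRNAs were mostly higher after 5FU, and none of them passed the limma test. Of the H/ACA core and its assembly factors, 6 genes were measured, with a median difference of 0.58 in AMKO and 0.425 in Ctrl. Among them, 1 was at least 2-fold higher in AMKO, where 3.02% of all genes were. The dyskerin gene Dkc1 read 10.37 in AMKO and 10.17 in Ctrl after 5FU, against 9.76 in AMKO and 9.74 in Ctrl at basal, and Gar1 differed by 1.01 in AMKO and 0.66 in Ctrl. Of the C/D core, Nop58, Nop56 and Snu13 were measured. Snu13, which binds the kink-turn of the C/D box, differed by 1.30 in AMKO and 0.74 in Ctrl. All 9 measured assembly and transport factors were higher in both genotypes, where 30.8% of all genes were. Their medians were 0.66 in AMKO and 0.46 in Ctrl, and 2 were at least 2-fold higher in AMKO (3.02% of all genes). Rpap3, part of the R2TP chaperone complex, differed by 1.46 in AMKO and 0.13 in Ctrl.

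Cajal body and spliceosomal assembly proteins were mixed. Of 14 measured, 9 were higher in AMKO and 10 in Ctrl, where 10467 of 22180 genes were higher in AMKO and 10925 in Ctrl. The 14 had medians of 0.22 in AMKO and 0.17 in Ctrl. In each genotype 1 was at least 2-fold higher, where 3.02% of all genes were in AMKO and 3.32% in Ctrl. The gene for coilin, Coil, the scaffold of the body, differed by 0.31 in AMKO and 0.09 in Ctrl, and Wrap53, which brings scaRNAs there, by 0.25 in AMKO and -0.34 in Ctrl. Exosome and decay genes had medians of 0.355 in AMKO and 0.215 in Ctrl over 24 measured. Among them, 3 were at least 2-fold higher in AMKO, where 3.02% of all genes were. The lariat debranching enzyme Dbr1, which opens introns from which snoRNAs are cut, read 7.59 in AMKO and 6.89 in Ctrl after 5FU, against 6.0 in AMKO and 6.41 in Ctrl at basal. The 5′ exonuclease Xrn2 differed by 1.35 in AMKO and 0.72 in Ctrl. None of these lists was tested as a list, and all rest on the same 2 pairs of arrays.

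Other noncoding RNAs were mixed. The listed noncoding hosts had medians of -0.18 in AMKO and -0.30 in Ctrl over 19 measured. Among them, 3 were at least 2-fold lower in AMKO and 4 in Ctrl, where 2.39% and 2.99% of all genes were. Snhg14, the host of the imprinted Snord115 and Snord116 clusters, read 5.07 in AMKO and 4.80 in Ctrl after 5FU, against 6.72 in AMKO and 6.94 in Ctrl at basal. Rian, another imprinted snoRNA host, read 4.18 in AMKO and 3.81 in Ctrl after 5FU, against 5.32 in AMKO and 5.89 in Ctrl at basal. A last list mixed kinds of noncoding RNA and held Terc, Rpph1, Rn7sk, Rny1, Rny3, Vaultrc5, Malat1 and Neat1. Of these 8, Rpph1 and Malat1 were at least 2-fold lower in AMKO and Rpph1 in Ctrl, where 2.39% and 2.99% of all genes were. Rny1 was that much higher in AMKO and Vaultrc5 in Ctrl, where 3.02% and 3.32% of all genes were. Rpph1, the RNA of ribonuclease P, differed by -1.58 in AMKO and -1.89 in Ctrl, and Terc, the H/ACA-type template of telomerase, by -0.97 in AMKO and -0.19 in Ctrl.

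Few members were past 2-fold between AMKO and Ctrl cells at basal, but the share higher in AMKO was above that of all genes. There, 2 of 78 members (2.56%) were at least 2-fold higher in AMKO, against 0.23% of all genes. None was at least 2-fold lower, where 0.505% of all genes were. Centred arrays gave 2 higher and 1 lower, a higher share of 66.7% in place of 100%. The medians were 0.12 for H/ACA RNAs, 0.07 for C/D RNAs and 0.15 for Cajal body RNAs, against 0.04 for all genes. Snord35b was highest, with 7.23 in AMKO and 5.89 in Ctrl. Scarna17 followed with 8.70 in AMKO and 7.37 in Ctrl, and both probe sets were higher in AMKO. Snora62 (0.90), Snord35a (0.85) and Snord118 (0.80) were next, and Snord37 (-0.94), Snord19 (-0.82, under the floor) and Snord88a (-0.55) were lowest. These values compare with the Ctrl Basal array, which carries the muscle markers given above, and their part was not tested.

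More members were past 2-fold between the genotypes after 5FU, with 6 at least 2-fold higher in AMKO and 7 lower, where 0.537% of all genes were higher and 1.8% lower. The members were more spread than all genes, with an interquartile range of 0.73 against 0.33. Their median was -0.09, against 0.05 for all genes. This contrast uses the Ctrl 5FU array with its neutrophil markers. Snord90 read 5.39 in AMKO and 7.29 in Ctrl after 5FU, and 6.51 in AMKO and 6.62 in Ctrl at basal. Snord87, from Snhg6, read 6.81 in AMKO and 8.61 in Ctrl after 5FU, and 8.66 in AMKO and 8.38 in Ctrl at basal, so the AMKO 5FU array was the lowest of the 4 for both RNAs. Snord91a (-1.25, under the floor), Snord35b and Snord72 (-1.18 each), Snora44 (-1.08) and Snora75 (-1.02) were also lower in AMKO. Scarna8 and Snord110 (under the floor) were both 1.88 higher in AMKO. Snord11 was 1.41 higher, with 7.25 in AMKO and 5.84 in Ctrl after 5FU, against 6.28 in AMKO and 6.61 in Ctrl at basal. Snord73b (1.18), Snora62 (1.08) and Snord43 (1.06, under the floor) completed the higher ones.

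At both times together, no member was 2-fold different in the same direction (0.018% of all genes higher, 0.0271% lower). By any amount, 24 members were higher in AMKO at both times and 23 lower, where 32.2% of all genes were higher and 18.1% lower. Both AMKO arrays lay above both Ctrl arrays for 10 members and below them for 8, where 17.3% and 7.85% of all genes did so. Snora62, from Rpsa, was higher at both times by the most, with 6.57 in AMKO and 5.49 in Ctrl after 5FU and 6.74 in AMKO and 5.84 in Ctrl at basal. Snora78, from Snhg9, was next, with 7.66 in AMKO and 6.69 in Ctrl after 5FU and 7.82 in AMKO and 7.10 in Ctrl at basal. Neither host was that different: Rpsa differed by 0.28 after 5FU and -0.28 at basal, and Snhg9 by 0.13 after 5FU and -0.15 at basal. Snord55 (0.68 after 5FU, 0.55 at basal) and Snord92 (0.44, 0.41) were likewise higher, and Snord70 (-0.49, -0.43) and Snord88a (-0.38, -0.55) lower. In the limma fit, 0 of 14061 genes and 0 of 66 members passed for AMKO, the smallest adjusted p being 0.906. Of those members, 10 (15.2%; 9 higher) had an unadjusted limma p under 0.05, against 3.17% of the genes. Models of genotype alone, with 1 Ctrl array against both AMKO arrays, gave 1 member (1.52%, against 1.05% of genes) without the Ctrl 5FU array and 6 (9.09%, against 3.4%) without the Ctrl Basal array. They differ in form from the additive fit.

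**Figure D5:**
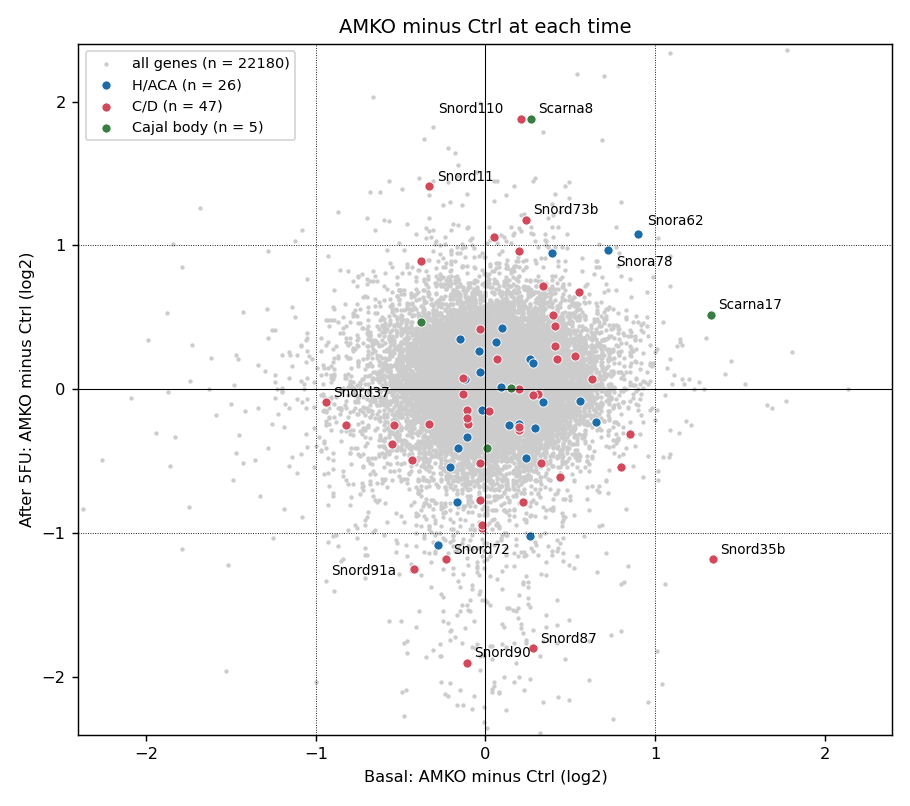
AMKO minus Ctrl at basal on the horizontal axis and after 5FU on the vertical axis, in log2 units, for the members by class and for genes in grey; dotted lines mark 2-fold and genes beyond the axes are not drawn. No member is past 2-fold at both times in one direction; Snora62 comes nearest, at 0.90 and 1.08.

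The 5FU difference itself differed between genotypes by at least 2-fold in 13 members, of which 5 were higher in AMKO and 8 lower, where 1.85% of all genes were higher and 2.27% lower. Centred arrays gave 6 higher and 6 lower, a higher share of 50% in place of 38.5%. As deposited, the interquartile range was 0.80 for the members and 0.48 for all genes. Snord35b (-2.52), Snord87 (-2.08) and Snord90 (-1.79) had the lowest values, followed by Snord118 (-1.34) and Snora75 (-1.28). Snord11 (1.74), Snord110 (1.67), Scarna8 (1.61), Snord58b (1.27) and Snord43 (1.01) had the highest. Of these, Snord110 and Snord43 were under the floor throughout. Each is a difference between 4 single arrays and was not tested.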

How the data were processed

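Total RNA of LSK cells was extracted with a column kit, made into biotinylated cRNA and hybridised to 1 Affymetrix array per group, per the labels' protocols. The deposited log2 values (range 1.99 to 13.43) were used as given; how the authors corrected background and normalized was not given in the sources used here. GEO's platform annotation gave 1 gene to 23521 of 34472 probe sets, several to 1814 and none to 9137. The highest-mean probe set stood for a gene. The members and gene lists were chosen with earlier results of these data known. Named members were the extremes of each comparison and of level in each class, members sharing a host, and members with several probe sets. Hosts were the smallest RefSeq gene spans that contain a member; strand was not checked. The 2 additive effects were fitted in limma 3.58.1 (R 4.3.3) with an intensity trend, over genes with a value of at least 5.475 on 1 array or more, and Benjamini-Hochberg adjustment. On simulated data for the 5FU effect, with 200 of 14061 genes changed, the fit called 2.5% of log2 changes of 1, 72.1% of 2, 89.8% of 3 and 96.3% of 4. The number of arrays limits the precision. Alternatives were quantile normalization, median centring, other floors and folds, mean of probe sets, and, chosen after the data were seen, fits without the Ctrl 5FU or Ctrl Basal array. Other steps used Python 3.11.15, pandas 2.3.3 and matplotlib 3.10.9.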

Additional observations from a re-analysis of the deposited data

Results flagged for a closer look

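Snord11, Snord35b and Snord90 moved in opposite directions in the 2 genotypes, each by at least 1.5-fold, on single arrays, and the difference was not tested. Snord35b differed after 5FU by -1.89 in AMKO and 0.63 in Ctrl, a difference of -2.52. Read the other way, AMKO minus Ctrl was -1.18 after 5FU and 1.34 at basal, again -2.52 apart. Snord90, inside Rc3h2, differed after 5FU by -1.12 in AMKO and 0.67 in Ctrl, a difference of -1.79. Snord11, inside Nop58, differed by 0.97 in AMKO and -0.77 in Ctrl, a difference of 1.74.

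Probe sets assigned to several genes were used in no comparison, and of those with a snoRNA or scaRNA symbol 2 were at least 2-fold higher after 5FU in a genotype and 4 at least 2-fold lower. The lower ones were those of Snord15b with Rps3 (-1.48 in AMKO, -1.11 in Ctrl), Snord32a (-1.66 in AMKO, 0.08 in Ctrl), Snord33 (-1.33 in AMKO, 0.78 in Ctrl) and Snord68 (-1.07 in AMKO, -0.86 in Ctrl). The probe set of Snora81 and Eif4a2 read 5.98 in AMKO and 6.48 in Ctrl after 5FU, against 3.98 in AMKO and 5.87 in Ctrl at basal, so its 5FU difference in AMKO was 2.0. The probe set of Scarna3b and Mir1843a read 7.67 in AMKO and 8.59 in Ctrl after 5FU, against 6.82 in AMKO and 7.52 in Ctrl at basal, and its 5FU difference in Ctrl was 1.07. The signal cannot be assigned to one of the genes named.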

How the results depend on the processing

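No paired analysis was possible because each group had 1 array. Of 287 recomputed class medians and single-member differences, 268 were counted as unchanged. That meant a class median close to its deposited value, or a member still at least 2-fold in its direction, so sizes could differ. A floor leaves a single member's value as it is, and the mean of probe sets alters only members with several probe sets. Many of the 268 were therefore fixed by construction. The C/D median for AMKO at basal turned to -0.01 with median centring (0.07 as deposited). Counts at least 2-fold, given as higher and lower, changed as follows. For 5FU in AMKO (2 and 15), quantile normalization and centring gave 4 higher, a floor at the median 1 higher, a floor at the 75th percentile 1 and 8, a 1.5-fold limit 10 and 26, and a 3-fold limit 1 and 7; the median became -0.225 with centring. For 5FU in Ctrl (2 and 8) the 75th percentile gave 1 and 3 with a median of -0.28, 1.5-fold 10 and 16, and 3-fold 0 and 2. For AMKO at basal (2 and 0), centring gave 1 lower, the 75th percentile 1 higher, 1.5-fold 8 and 2, and 3-fold 0 higher. For AMKO after 5FU (6 and 7) the 75th percentile gave 0 and 3 with a median of -0.20, 1.5-fold 12 and 13, and 3-fold 2 and 2. For the difference of 5FU differences (5 and 8) the median floor gave 3 higher, the 75th percentile 1 and 4, 1.5-fold 9 and 20, and 3-fold 3 and 3. Other limits and floors change the counts by construction; the cause of the other changes was not tested. In limma, members passing for 5FU numbered 8 with quantile normalization (of 972 genes), 2 with centring (of 161), 7 at the 75th percentile (of 1293, 15.6% of members and 15.7% of genes) and 9 with robust estimation (of 1315), and 0 with no floor, no trend, the mean of probe sets or without the Ctrl 5FU or Ctrl Basal array. The fits without an array hold 1 term only and 1 Ctrl array, so their counts, given in the report, are not like for like. For AMKO 0 members passed in any of these fits.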

Other observations

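Rpl13a carries several C/D RNAs, and their probe sets, which name Rpl13a as well and so are no members, did not move alike. That of Snord32a read 8.19 in AMKO and 9.38 in Ctrl after 5FU, against 9.85 in AMKO and 9.30 in Ctrl at basal. That of Snord33, whose 5′ end is printed above, read 7.90 in AMKO and 9.28 in Ctrl after 5FU, against 9.23 in AMKO and 8.50 in Ctrl at basal. Both were lowest on the AMKO 5FU array. That of Snord34 read 11.44 in AMKO and 11.52 in Ctrl after 5FU, against 11.86 in AMKO and 12.06 in Ctrl at basal. These 3 stand beside Snord35a, the member in the same host, at -0.99 in AMKO and 0.17 in Ctrl.

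The imprinted Snord116 copies were read by 16 probe sets that name several genes and hold 1 set of values, 3.66 in AMKO and 3.89 in Ctrl after 5FU, against 4.51 in AMKO and 3.95 in Ctrl at basal, all under the floor. Copies of Snord115 were not analysed here. Among members with 2 probe sets, the dimmer one of Snora33 differed after 5FU by -0.78 in AMKO and -0.01 in Ctrl, and both of Snora19 held the same values.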
